A study of Mus musculus with 6 samples.

Results

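The miR-192, miR-194 and miR-215 family was followed through normal mouse liver, non-tumour liver and tumour of a steatohepatitis model. Its members were the 3 probes named mmu-miR-192, mmu-miR-194 and mmu-miR-215 for the main strands, out of 1096 mouse probes on the array. All 3 were measured on all 6 arrays. MiR-192 and miR-194 gave bright spots everywhere, and miR-215 stayed near the level of the blank spots on all arrays but HCC 1.

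MicroRNAs (miRNAs) are short RNAs that pair with messenger RNAs, mainly through the seed near their 5′ end, and lower the output of those messages. MiR-192 and miR-215 carry the same seed, so they are expected to share targets, while miR-194 has another seed and is made from the same primary transcripts. In the liver the family is known as abundant in hepatocytes. In human cells it is also known to be induced by p53 and to slow the cell cycle.

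The arrays held 3 samples of hepatocellular carcinoma (HCC 1, 2-1 and 2-2) from STAM mice, 2 samples of non-tumour liver (NT 1 and 2) from STAM mice, and 1 normal liver from a control mouse. STAM mice received streptozotocin (STZ, a toxin of insulin-producing cells) and a high-fat diet, and by the labels they have HCC at 18 weeks. All 6 samples share a C57BL6 background. The age of each sampled mouse, whether HCC 2-1 and 2-2 came from separate animals, and which HCC and NT samples share a mouse are not given in the sources used here. P-values therefore measure only the spread among these HCC and NT samples. The whole tissue was profiled, so fewer cells of a type and less miRNA per cell cannot be told apart.

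The mature sequences below, taken from RefSeq on the mouse build GRCm38.p6, are shown because they set which members can be told apart and which loci a probe reads. Each is written 5′ to 3′ with the seed, bases 2 to 8, in capitals.
miR-192-5p: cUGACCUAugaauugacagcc
miR-215-5p: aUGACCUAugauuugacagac
miR-194-5p: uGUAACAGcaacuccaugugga
miR-192-3p: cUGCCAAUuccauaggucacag
MiR-192-5p and miR-215-5p have 18 of 21 bases in common. Counted from the 5′ end, with the base of miR-192-5p first, they differ by C1A, A12U and C20A, all outside the seed. They are the 2 mature mouse miRNAs in the table with this seed, and no other entry shares the seed of miR-194-5p. The probes named miR-192, miR-194 and miR-215 were taken as the 5p strands and miR-192* as miR-192-3p, by the usual change from the older names.

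The family comes from 2 loci. On chromosome 19, Mir194-2 (chr19:6264643-6264728) and Mir192 (chr19:6264844-6264932) lie on the plus strand with 115 bases between them. They overlap no other gene of the RefSeq table, and the nearest coding gene, Atg2a, ends 2339 bases before Mir194-2. On chromosome 1, Mir194-1 (chr1:185313319-185313385) and Mir215 (chr1:185313581-185313692) lie on the plus strand with 195 bases between them, inside the span of Iars2, a gene of the minus strand. Both loci encode the same miR-194-5p. The miR-194 probe therefore reads their sum, while the mature miR-192-5p and miR-215-5p each come from 1 locus. The probe sequences were not used here, so whether the miR-215 probe also binds miR-192 was not tested.

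The scanner values were raw spot intensities (pixel medians), and a spot was counted as above background where it exceeded the mean of the array's blank spots by more than 2 SD. That limit lay between 14.5 and 20.7 scanner units. The scanner gain was 41 for HCC 1, 39 for HCC 2-1 and 2-2, and 38 for both NT arrays and the normal array. Of the 16 probes of a hepatocyte-enriched list, 14 to 15 were above background on the HCC arrays and all 16 on the NT and normal arrays. MiR-122, the dominant miRNA of hepatocytes, read 2725, 4639 and 7358 in HCC 1, 2-1 and 2-2, against 6163 and 5647 in NT 1 and 2 and 5379 in normal liver. Each array also carried 16 spots of 2 spike controls, whose intensities varied within an array by a coefficient of variation of 2.06% to 8.88%. Spike Control 1 had a median of 762, 743 and 775 on the HCC arrays, against 560.5 and 640 on the NT arrays and 609.5 on the normal array. Spike Control 2 had a median of 536.5, 645 and 599 on the HCC arrays, against 493.5 and 527 on the NT arrays and 553.5 on the normal array. The gain and the tumour cannot be told apart on unscaled values.

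**Figure D1:**
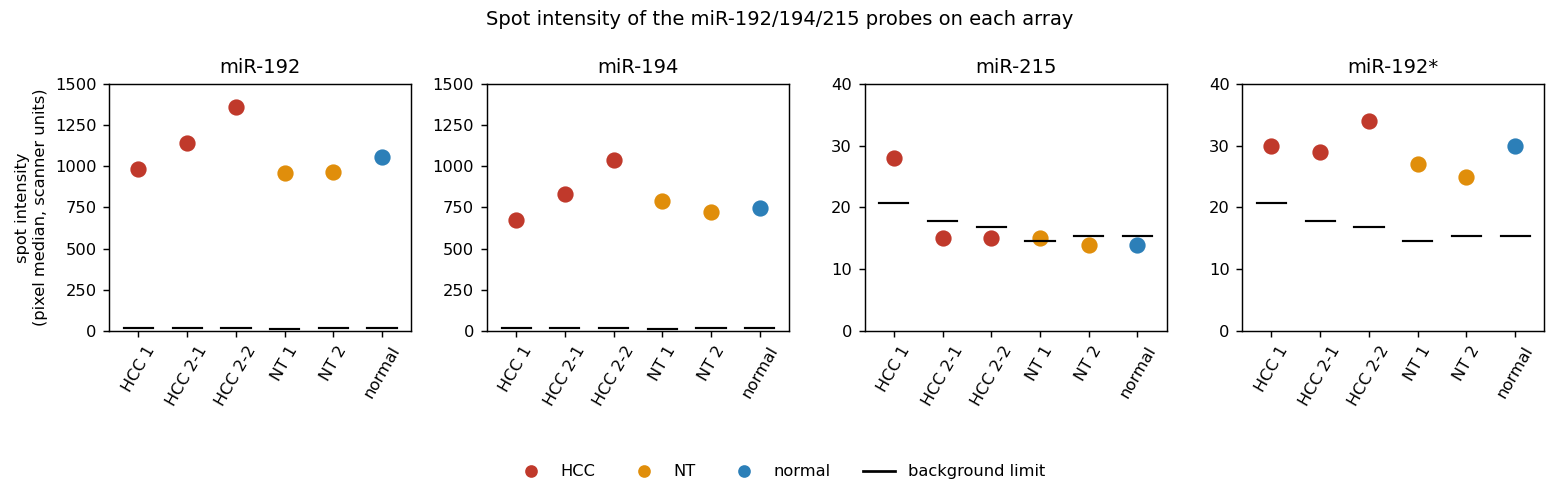
Spot intensity (pixel median, scanner units) of miR-192, miR-194, miR-215 and the other arm of miR-192, miR-192*, on each of the 6 arrays. Points are arrays coloured by group, and the black dash is each array's background limit. MiR-192 and miR-194 lie far above the limit on all arrays, while miR-215 clears it on HCC 1 and, by under 1 unit, on NT 1.

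MiR-192, which in kidney and epithelial cells is known to act on the Zeb transcription factors, had nearly the same spot intensity throughout. It read 985, 1139 and 1361 in HCC 1, 2-1 and 2-2, against 962 and 967 in NT 1 and 2 and 1054 in normal liver. The brightest array, HCC 2-2, exceeded the dimmest, NT 1, by 1.41 times. The HCC arrays, read at a higher scanner gain, were all brighter than the NT arrays before any scaling, and normal liver lay inside the range of HCC. The share of all probes brighter in this way on unscaled values was not computed.

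MiR-194, the partner transcribed with both other members, followed the same order within HCC. It read 675, 834 and 1040 in HCC 1, 2-1 and 2-2, against 791 and 723 in NT 1 and 2 and 749 in normal liver. HCC 1 was the lowest of the 6 arrays and HCC 2-2 the highest, so the HCC arrays enclosed those of both other groups. The brightest array exceeded the dimmest by 1.54 times.

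MiR-215, encoded with miR-194 on chromosome 1 and best known from gut and kidney, was near the limit of measurement. It read 28, 15 and 15 in HCC 1, 2-1 and 2-2, against 15 and 14 in NT 1 and 2 and 14 in normal liver. It was above background in 1 of 3 HCC and 1 of 2 NT samples, and not in normal liver. In HCC 1 the pixels of this spot had a mean of 1632 with an SD of 5489 around their median of 28, so a few pixels carried most of its light. On the other arrays the pixel mean was 14.6 to 18.2. The spots of miR-192, 18 of whose 21 bases miR-215 shares, were bright on these same arrays. The authors' deposited table gives miR-215 a value in HCC 2-2 (12.5) and NT 1 (14.3), and leaves the other arrays empty.

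The other arms of the hairpins, which are usually degraded, were dim. MiR-192* read 30, 29 and 34 in HCC 1, 2-1 and 2-2, against 27 and 25 in NT 1 and 2 and 30 in normal liver, above background on all arrays. MiR-194-2* read 17 to 22 in HCC, 16 and 17 in NT and 16 in normal liver, and was not above background in HCC 1. MiR-194-1* read 18 to 20 in HCC, 13 and 15 in NT and 15 in normal liver, above background on 3 arrays, and miR-215* was above background on none.

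To compare groups, spots were background-corrected, moved to log2 with an offset of 50 and quantile normalized, and limma's model was fitted to 613 probes above background on at least 2 arrays. All 3 members passed that filter, miR-215 by its spots on HCC 1 and NT 1. Quantile normalization replaces each value by the mean value of its rank, so a bright miRNA moves where others pass it.

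Tumours were set against non-tumour liver of the same model first. The normalized log2 intensity of miR-192 was 9.97, 9.93 and 10.10 in HCC, against 10.25 and 9.88 in NT. The groups overlapped, with a difference of -0.07 (SE 0.13, 95% interval -0.40 to 0.26) and an adjusted p of 0.919 in limma. MiR-194 was at 9.24, 9.47 and 9.60 in HCC, against 9.88 and 9.60 in NT. Here HCC 2-2 held the same rank as NT 2, and the difference was -0.31 (SE 0.14, 95% interval -0.68 to 0.07, limma adjusted p 0.622). MiR-215 was at 5.83 ± 0.11 in HCC (SD, n = 3) and 5.82 ± 0.04 in NT (SD, n = 2), a difference of 0.01 (SE 0.07, limma adjusted p 0.965). For spots this near the blank level, the size of that SE depends on the offset. With an offset of 16 the difference was 0.02 (SE 0.17), and with the blank level subtracted it was 0.20 (SE 1.08). The small difference therefore does not show that the level of miR-215 was unchanged.

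None of the 3 members passed, and in limma's test none of the 613 probes did in either direction (0%), while 56 had an unadjusted p under 0.05. For none of the members were the HCC arrays all on 1 side of the NT arrays, as they were for 12.7% of probes that were lower and 10.9% that were higher in HCC. HCC 1 and NT 2 shared a chip, and their difference there was 0.09 for miR-192, -0.36 for miR-194 and 0.17 for miR-215. For miR-192 the sign was opposite to that over all arrays, as it was without NT 1 (0.12).

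Non-tumour STAM liver was next set against the 1 normal liver. A single normal array gives no spread of its own. Each SE, interval and p-value against it, for NT and for HCC, assumes that normal livers vary like the HCC and NT samples. In quantile-normalized values miR-192 and miR-194 were at lower levels in NT. MiR-192 was at 10.25 and 9.88 in NT 1 and 2, against 10.78 in normal liver, a difference of -0.71 (SE 0.17, 95% interval -1.15 to -0.27, limma unadjusted p 0.00995, adjusted p 0.295). MiR-194 was at 9.88 and 9.60, against 10.25 in normal liver, a difference of -0.51 (SE 0.19, 95% interval -1.01 to -0.01, limma adjusted p 0.387). Both NT arrays lay below the normal array for each, a position held by 35.1% of all tested probes. MiR-215 was at 5.84 and 5.79, against 5.78 in normal liver (difference 0.03, SE 0.10, limma adjusted p 0.933). Both NT arrays lay above the normal array for it, as for 36.7% of probes. Neither NT 2 nor normal liver was above background for miR-215, so no fold is given. With the blank level subtracted, the difference of miR-215 was 0.77 (SE 1.45).

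None of these differences passed. Of the 613 probes 0.163% were called higher in NT, which is miR-451 of red blood cells alone, and 0% lower, while 77 had an unadjusted p under 0.05. Among all 613 differences, that of miR-192 was the 4th from the lowest and that of miR-194 the 12th, beside a median of 0.00 over all probes. On the chip shared by NT 1 and normal liver, NT 1 minus normal was -0.52 for miR-192 and -0.37 for miR-194.

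Tumours were then set against the normal liver. MiR-192 differed by -0.78 (SE 0.16, 95% interval -1.20 to -0.36) and miR-194 by -0.82 (SE 0.18, 95% interval -1.29 to -0.35). In limma both had an adjusted p of 0.181, with unadjusted p of 0.0055 and 0.0072. All 3 HCC arrays were below the normal array for both, as for 30.8% of all tested probes. MiR-215 differed by 0.05 (SE 0.09, limma adjusted p 0.847), and its HCC arrays lay on both sides of the normal array, whereas 33% of probes were higher on all 3. With the blank level subtracted, miR-215 differed by 0.97 (SE 1.37). MiR-451 was again the sole call, so that 0.163% were called higher and 0% lower, with 99 at an unadjusted p under 0.05. This comparison and that of NT with normal liver use the same single normal array, so they are not separate observations.

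The lower normalized values than in normal liver went with lower ranks, while the spot intensities of the groups lay close together. By rank among 1095 probes miR-192 was number 16, 17 and 14 in HCC 1, 2-1 and 2-2, number 12 and 18 in NT 1 and 2, and number 7 in normal liver. MiR-194 was number 28, 24 and 22 in HCC, number 18 and 22 in NT, and number 12 in normal liver. The probes that ranked below miR-192 in normal liver and above it on all 5 STAM arrays, picked after their values were seen, were miR-21, let-7f and let-7a. MiR-21, a miRNA raised in injured liver, read 1576, 1256 and 2152 in HCC and 1375 and 1544 in NT, against 606 in normal liver. Let-7f read 1137 to 1861 in HCC and 1182 to 1391 in NT, against 834 in normal liver. MiR-194 was passed in this way by 6 probes, among them miR-21, miR-29a, miR-29b and the endothelial miR-126-3p. No probe moved the other way past either member, but few could. In normal liver miR-192 was already number 7 and miR-194 number 12 of 1095. How many probes passed other miRNAs of like rank was not computed.

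On some scales that keep intensity in place of rank, the differences of miR-192 and miR-194 from normal liver were nearer to 0. Those between HCC and NT were not always so. Under cyclic loess, which does not replace values by rank either, most of the difference from normal liver stayed. NT minus normal was -0.67 for miR-192 and -0.50 for miR-194 there, and HCC minus normal was -0.66 and -0.59. With each array scaled to its spike control spots, a scale chosen after seeing the data, NT minus normal was -0.06 (SE 0.16) for miR-192 and 0.07 (SE 0.20) for miR-194. HCC minus normal was then -0.07 (SE 0.15) for miR-192 and -0.04 (SE 0.19) for miR-194, and HCC minus NT was -0.01 (SE 0.12) and -0.11 (SE 0.15). What RNA the spike spots detect and at which step it was added are not given in the sources used here, so it is not known which steps this scale corrects for. The median of all tested probes on this scale was 0.10 for NT minus normal, -0.09 for HCC minus normal and -0.18 for HCC minus NT. MiR-192 was lower on both NT arrays than on the normal array, as were 3.26% of probes on this scale, while 75.7% were higher on both. The HCC arrays overlapped the NT arrays for both members, while 53.2% of probes were lower and 1.96% higher on all HCC arrays. They also lay on both sides of the normal array for both members, while 40.8% of probes were lower and 18.4% higher on all 3. In the authors' processed values, a linear intensity with a median of 24.7 to 25.4 on each array, miR-192 stood at 3752, 4944 and 5670 in HCC, against 5870 and 4909 in NT and 6129 in normal liver. MiR-194 stood at 2482, 3710 and 4233 in HCC, against 4798 and 3724 in NT and 4365 in normal liver. On log2 of these values HCC minus normal was -0.38 (SE 0.36) for miR-192 and -0.36 (SE 0.40) for miR-194, where the median of 348 probes with a value on all arrays was 0.32. HCC minus NT was -0.19 (SE 0.28) for miR-192 and -0.32 (SE 0.31) for miR-194, beside a median of -0.07. Without any scaling HCC minus NT was 0.24 for miR-192 and 0.14 for miR-194. In the authors' processed values HCC 1 was the lowest array for both members, by 0.71 and 0.81 below normal liver in log2. HCC 2-2 was lower than normal liver by 0.11 and 0.04 in those values.

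**Figure D2:**
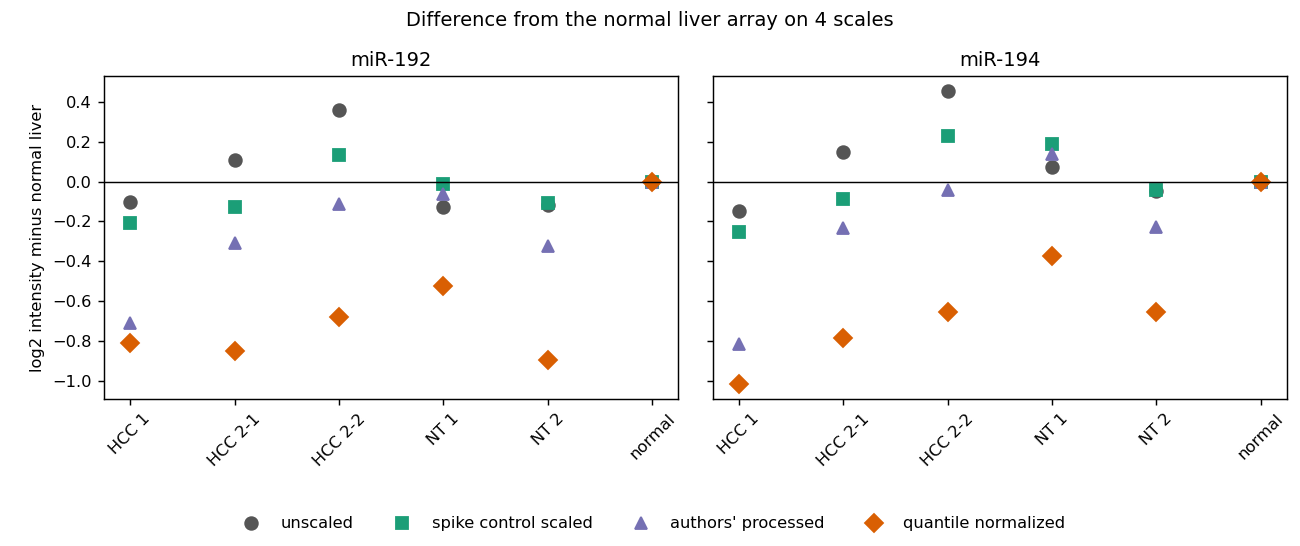
Log2 intensity of miR-192 (left) and miR-194 (right) on each array minus that of the normal liver array, on 4 scales: unscaled, scaled to the spike control spots, the authors' processed values and quantile normalized. Quantile-normalized values lie 0.37 to 1.01 below normal liver on every HCC and NT array, while spike-scaled values lie between -0.25 and 0.23.

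**Figure D3:**
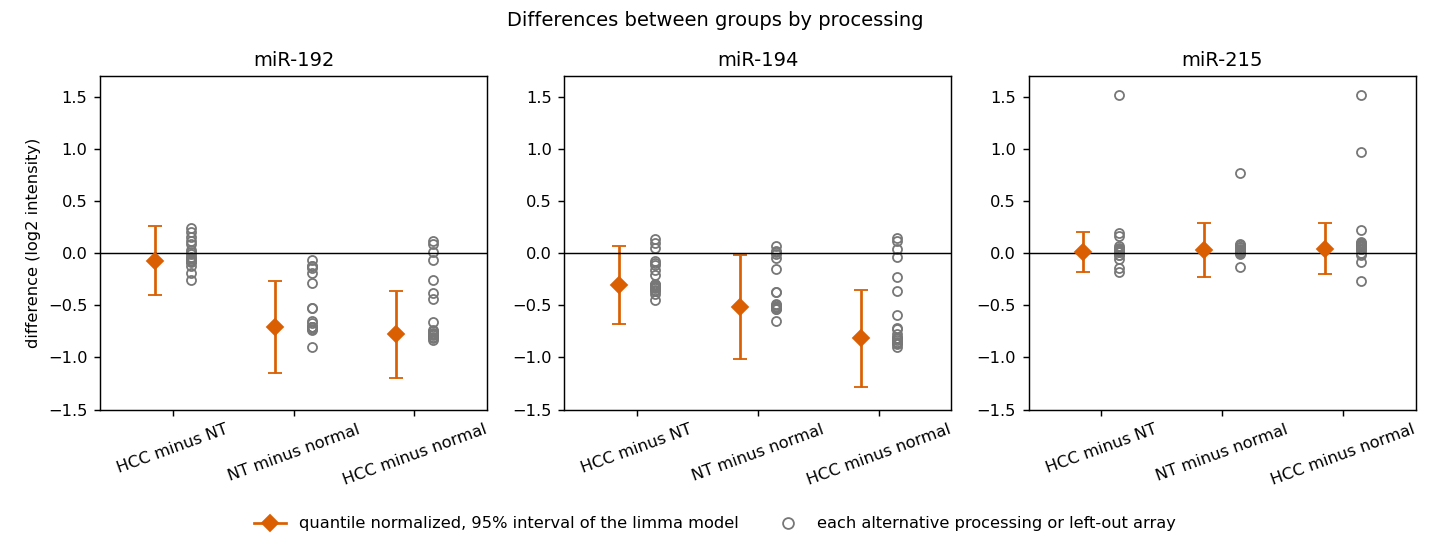
Differences between groups in log2 intensity for the 3 members. Orange diamonds are quantile-normalized differences with the 95% interval of the limma model, and open circles are the same difference under each other processing or with an array left out. MiR-192 and miR-194 differ from normal liver by about -0.5 to -0.8 as quantile-normalized values and by about 0 on some other scales, and for miR-215 the 2 circles near 1.5 are the pixel-mean values.

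Between arrays, miR-194 was set against miR-192. Their log2 ratio is free of any scaling by a constant, and relative to the normal array it was -0.05, 0.04 and 0.10 in HCC 1, 2-1 and 2-2 and 0.20 and 0.07 in NT 1 and 2 before normalization. HCC 1 and HCC 2-1 lay below both NT arrays, and HCC 2-2 lay between them. The mean HCC minus NT change of miR-194 against miR-192 was -0.11 (two-sided exact permutation test over 5 samples, p = 0.3, where 0.1 is the smallest p possible). After quantile normalization it was -0.24 with an exact permutation p of 0.2. The change of miR-215 against miR-192 between HCC and NT was 0.08 after quantile normalization and -0.17 before it (exact permutation p = 0.6 for each), and rests on spots near background.

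**Figure D4:**
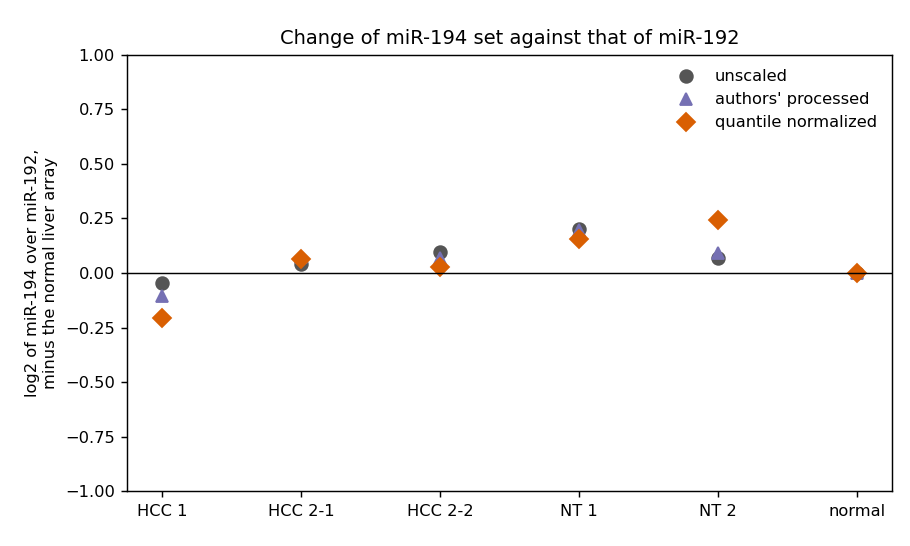
Log2 of miR-194 over miR-192 on each array, minus the same ratio on the normal liver array, for unscaled, authors' processed and quantile-normalized values. The points run from -0.21 in HCC 1 to 0.24 in NT 2 for quantile-normalized values.

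Over the 6 arrays the normalized values of miR-192 and miR-194 correlated at r = 0.90 and their spike-scaled values at 0.91, a description of 6 points that share the arrays' scaling. Among the other 281 probes above background on all arrays, that most like miR-192 was miR-192*, the other arm of its own hairpin (r = 0.97), before miR-30a (0.97), miR-30c (0.96), miR-30e* (0.95) and miR-3102-5p.2 (0.95). Of the 281, miR-194 was number 13 in likeness to miR-192, and miR-192 was number 8 in likeness to miR-194. Most like miR-194 were miR-511-3p (0.98), miR-192* (0.98), miR-30e (0.96), miR-30c (0.96) and miR-30a (0.95). On spike-scaled values these were 0.37, 0.45, 0.44, 0.78 and 0.73. On spike-scaled values the likeness of miR-30a to miR-192 was 0.88 and that of miR-192* 0.30. Most like miR-215 was miR-186 (0.98, or 0.86 without HCC 1), followed by miR-3470b, miR-378b, miR-130a and miR-330 (0.91 to 0.82). Without HCC 1 that of miR-330 was 0.58, and on spike-scaled values that of miR-130a was 0.07. As miR-215 was above background on HCC 1 and NT 1 alone, its values without HCC 1 lie almost wholly at the blank level. Leaving out HCC 1 is therefore no check of these likenesses. MiR-186, like miR-215, was brightest on HCC 1, at 38 against 18 to 19 on the other arrays.

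The dim partner miR-192* had quantile-normalized differences in the same direction as miR-192. It differed by -0.08 (SE 0.07, limma adjusted p 0.770) for HCC minus NT, by -0.27 (SE 0.09, adjusted p 0.364) for NT minus normal and by -0.36 (SE 0.09, adjusted p 0.199) for HCC minus normal. On spike-scaled values it differed by -0.19 (SE 0.10), 0.0029 (SE 0.13) and -0.19 (SE 0.12) in the same comparisons. MiR-194-1* and miR-194-2* differed by -0.04 to 0.05 in all 3 comparisons, all dim enough that the offset of 50 holds their differences near 0.

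Other hepatocyte-enriched miRNAs had mostly negative differences on quantile-normalized values. Of 16 tested, 12 were lower and 4 higher in HCC than in NT with a median of -0.09 beside 0.00 over all probes, from miR-122 (-0.30) and miR-101a (-0.21) to miR-107 (0.12) and miR-378 (0.38), and none passed. In NT against normal liver 11 were lower and 5 higher with a median of -0.12, from miR-30a (-0.83) and miR-148a (-0.61) to miR-122 (0.14) and miR-33 (0.17), and none passed. In HCC against normal liver 12 were lower and 4 higher with a median of -0.20, from miR-30a (-1.01) and miR-148a (-0.80) to miR-107 (0.16) and miR-33 (0.27), and none passed. On spike-scaled values the median of the list for NT minus normal was 0.04, with 10 of 16 higher, beside a median of 0.10 over all probes. For HCC minus NT it was -0.20 beside -0.18, with 12 of 16 lower. For HCC minus normal it was -0.16 beside -0.09, with 11 of 16 lower. The 2 that passed limma's test there, miR-103 and miR-107, were higher in HCC, where 1.31% of all probes passed as higher and 0% as lower.

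The p53-responsive miRNAs, a list to which the family is known to belong in human cells, had differences of both signs in each comparison. Of 11 tested, 6 were lower and 5 higher in HCC than in NT with a median of -0.05, from miR-145 (-0.80) and miR-34a (-0.58) to miR-107 (0.12) and miR-15b (0.42). Against normal liver 7 were higher and 4 lower in NT with a median of 0.04, from miR-15a (-0.15) and miR-34b-3p (-0.11) to miR-16 (0.57) and miR-34a (1.01), a direct p53 target. In HCC 5 were higher and 6 lower than in normal liver with a median of -0.03, from miR-145 (-0.55) and miR-15a (-0.20) to miR-34a (0.43) and miR-15b (0.55). None passed in any of the 3 comparisons. MiR-145 is also on the mesenchymal list used below, and further members are shared with the mesenchymal and bile duct lists. These lists are therefore not separate observations. On spike-scaled values 10 of 11 were higher in NT than in normal liver, with a median of 0.50 beside 0.10 over all probes, and miR-16 passed in limma's test as higher, where 0.326% of all probes did. In HCC against normal liver 6 were higher and 5 lower on that scale, with a median of 0.36 beside -0.09. MiR-107, which is also on the hepatocyte-enriched list, and miR-16 passed as higher, where 1.31% of all probes did and 0% passed as lower. In HCC against NT 9 of 11 were lower on that scale, with a median of -0.15 beside -0.18, and none passed.

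Markers of other cell types, as unscaled intensities, were brighter on all 5 STAM arrays than in normal liver for the leukocyte, erythroid, mesenchymal and endothelial lists. The summed signal above the blanks of 8 leukocyte probes was 182 to 261 in HCC and 190 to 332 in NT, against 76.3 in normal liver, with 7 or 8 of 8 above background on each array. For 3 erythroid probes it was 455 to 807 in HCC and 417 to 540 in NT, against 17.4 in normal liver, where 2 of 3 were above background. For 6 mesenchymal and stellate probes it was 249 to 320 in HCC and 300 to 526 in NT, against 166 in normal liver, and all 6 were above background on every array. For 2 endothelial probes it was 789 to 1848 in HCC and 1063 to 1283 in NT, against 586 in normal liver, with both above background throughout. For 9 bile duct and epithelial probes it was 33.9 to 161 in HCC and 120 to 138 in NT, against 101 in normal liver, with 5 to 9 above background. The HCC sums were read at a higher scanner gain than those of NT and normal liver. Mouse probes above background numbered 403 on the normal array, against 478 to 540 on the STAM arrays. The share of all probes brighter on every STAM array was not computed. Summed in the same way, the p53-responsive list was also brighter on each of them, at 1301 to 1589 against 802 in normal liver. The hepatocyte-enriched list was not, at 5177 to 10172 against 7362. On quantile-normalized values, in HCC against normal liver, 2 mesenchymal probes were higher and 4 lower (median -0.04), 1 endothelial probe was higher and 1 lower (median 0.01), and 6 leukocyte probes were higher and 2 lower (median 0.05, with miR-146a at -0.27). In NT against normal liver 6 of 6 mesenchymal, 2 of 2 endothelial and 7 of 8 leukocyte probes were higher, with medians of 0.24, 0.34 and 0.20. MiR-511-3p is not among the 8, as the listed leukocyte miRNA miR-511 had no probe of that name. It was at 6.17 and 6.10 in NT and 5.96 to 6.05 in HCC, against 6.24 in normal liver. Of the erythroid probes miR-451 differed by 2.73 for HCC minus normal, miR-144 by 0.05 and the probe of miR-486 by 0.10. All 6 mesenchymal, 8 leukocyte, 2 endothelial and 3 erythroid probes were lower in HCC than in NT on quantile-normalized values. Their medians were -0.31, -0.12, -0.34 and -0.02, beside 0.00 over all probes, and none passed. Of 9 bile duct and epithelial probes 7 were lower in HCC than in NT (median -0.11). The part of these markers in the differences of the family was not tested.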

How the data were processed

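Each of the 6 arrays was 1-colour. Labelling with Hy5 of total RNA is recorded per the labels. Per the file headers, the chips were of Toray's mouse design version 17, held 2 arrays each and were read at 635 nm. The deposited scanner files hold raw intensity, used here as the pixel median of a spot. No normalization is recorded in them. The processed intensity that the authors deposited rises linearly with the raw value (r from 0.99996) and has a median of 24.7 to 25.4 per array. Its making is not stated in these sources.

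Analysis used R 4.3.3 and limma 3.58.1. All spots were background-corrected with normexp at an offset of 50. Quantile normalization was then run on log2 values of the 1095 mouse probes left after dropping miR-434-5p, whose HCC 1 spot was marked as not OK. The background limit was the mean plus 2 SD of 1818 blank spots, trimmed by 5% at each end. The 613 probes above it on at least 2 arrays entered 1 limma model of 3 groups, with 3 residual and 1.63 prior degrees of freedom. P-values were adjusted by Benjamini-Hochberg per comparison, with 0.05 as the threshold. The number of arrays limits the precision. The model was also run on simulated data with independent noise of a common SD. That simulation left out normalization, chips and spots near background, so it cannot tell how these affect the results.

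The members, the lists and the tests were chosen with earlier results of these data known. Named probes are the members, their other arms, miR-122, the 5 probes most like each member, and up to 2 tested members at each end of a list. Of 60 list entries, miR-885-5p, miR-605 and miR-511 had no probe of that name.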

Additional observations from a re-analysis of the deposited data

Results flagged for a closer look

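The miR-215 spot of HCC 1 had a pixel mean of 1632 scanner units, against 15.9 in normal liver, while its pixel median was 28. The pixel mean enters no comparison above. With it in place of the pixel median, HCC minus NT for miR-215 was 1.53 and HCC minus normal 1.52 in log2, neither past the threshold. The pixel mean exceeded the pixel median more than 5 times for 5 spots of mouse probes over all arrays, 2 of them on HCC 1.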

How the results depend on the processing

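None of the 9 differences of the members passed limma's threshold under any of their 16 to 22 alternatives, where the smallest adjusted p was 0.126 (miR-194, HCC minus normal). MiR-192 was lower in NT than in normal liver under all 18, from -0.89 to -0.06. Spike scaling and the pixel mean were chosen after seeing the data, and the cause of the changes below was not tested.

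Under 75th percentile, median and no scaling, HCC minus normal was 0.016, 0.087 and 0.12 for miR-192 and 0.045, 0.12 and 0.15 for miR-194. HCC minus NT was then 0.16, 0.20 and 0.24 for miR-192 and 0.052, 0.098 and 0.14 for miR-194. For miR-192 HCC minus NT was also 0.015 under cyclic loess and 0.036 under median scaling over detected probes. With the chip as a block it was 0.088, which is HCC 1 minus NT 2 again, as no other chip held both groups. NT minus normal for miR-194 was 0.019 under median, 0.013 under no and 0.074 under spike scaling.

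For miR-215, HCC minus normal was -0.27 under median scaling over detected probes and -0.083 under spike scaling. With the blank level subtracted it was 0.97 (SE 1.37), and NT minus normal was 0.77 (SE 1.45). HCC minus NT was -0.014 under the 75th percentile, -0.14 under detected probes and -0.18 under spike scaling. NT minus normal was -0.13 under detected probes and -0.0082 with the pixel mean. MiR-215 has no value in the authors' processed values on all arrays, nor with the filter of above background on all 6. The change of miR-194 against miR-192 for NT minus normal was 0.14 under no or spike scaling. That of miR-215 against miR-192 was then -0.17 for HCC minus NT, -0.016 for HCC minus normal and 0.16 for NT minus normal. With the blank level subtracted it was 1.78 for HCC minus normal and 1.51 for NT minus normal, and with the pixel mean 2.25 for HCC minus normal.

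Leaving out 1 array at a time gave -0.25 to 0.12 for HCC minus NT of miR-192, where the positive value is that without NT 1 and the lowest that without NT 2. For miR-194 it gave -0.45 without NT 2 to -0.16 without NT 1. It gave -0.050 to 0.056 for miR-215, negative without HCC 1 or NT 2, and -0.075 to 0.24 for miR-215 against miR-192, negative without NT 1. HCC minus normal of miR-215 was -0.018 to 0.088, negative without HCC 1. A group left with 1 array is assumed to vary like the others.

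Probes called over all features, 1 for HCC minus normal, were 14 with the authors' values, 39 under detected probes, 3 under no scaling, 8 under spike scaling and 8 with a trended robust prior. They were 0 with the chip as a block, with only the 2 groups compared and with the pixel mean, and 0 to 1 with an array left out (0 without HCC 1 or HCC 2-2). For HCC minus NT, 0 in the model used, they were 20 under detected probes, 1 with no filter, 1 with the pixel mean and 3 with the trended robust prior. For NT minus normal, 1 in the model used, they were 5, 17, 2 and 5 with the authors' values, detected probes, spike scaling and the trended robust prior. They were 0 under the 75th percentile, median and no scaling, the chip block, only the 2 groups, the pixel mean, and without NT 1 or NT 2.

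With the label's number as a replicate block in HCC and NT, HCC minus NT was -0.05 for miR-192, -0.31 for miR-194 and 0.04 for miR-215 (limma adjusted p 0.919, 0.606 and 0.849), and no call changed. The deviations of HCC 1 and NT 1 correlated at r = 0.16 over 613 probes, and the labels do not say that a number pairs samples.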
